A study of Mus musculus with 6 samples.

Results

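Receptor chains for interleukins and related blood cell cytokines were compared between BCR-ABL1-transformed mouse B cell precursors of the genotypes labelled ETV5 KO and ETV5 WT. The set holds 47 named receptor chains, from the IL-1 receptors to the erythropoietin, growth hormone and leptin receptors. Each gene was represented by its brightest single-gene probe set by the mean over all 6 arrays, and 43 of the 47 chains had such a probe set, among 19938 genes measured. Il2rg, Il1r1, Il1rl1 and Prlr were not analysed here. The 6 samples, each hybridised to a 1-colour Affymetrix array, were total RNA of pre-B cells transformed by BCR-ABL1, a fusion kinase found in acute lymphoblastic leukemia (ALL) with the Philadelphia chromosome. In 3 samples the genotype was ETV5 WT and in 3 it was ETV5 KO, and the strain was 129SvEv throughout. The labels give neither the age of the mice nor the construction of the knockout allele, and they do not say whether samples of a genotype were separate mice or cultures. The p-values therefore reflect only how far these samples spread, and that spread may be technical.

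Cytokine receptors of this kind have no kinase of their own. In many receptors of the class I and class II families a ligand brings together a ligand-specific chain and a chain shared by several cytokines. Those of the homodimeric hormone type, such as Epor and Ghr, instead pair copies of the same chain. JAK kinases bound to the receptor tails phosphorylate STAT factors, and STAT targets such as Cish and the SOCS genes then restrain the receptors. IL-7 is the main cytokine of normal mouse B cell precursors and acts through Il7r and the common gamma chain. The IL-1 and IL-17 receptor families signal instead through adaptors such as Myd88 and Traf3ip2 towards NF-kappaB. BCR-ABL1 itself activates STAT5, a step that in untransformed precursors depends on cytokine receptors.

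The arrays were alike in scale, with medians of 7.79 to 7.84 log2 units, and correlated at r = 0.994 to 0.997 within and 0.991 to 0.994 between genotypes. These correlations run over probe sets, which do not count as replicates. The platform annotation assigns a pair of probe sets to the targeted gene. Etv5 probe set 10438626 gave 9.30, 9.52 and 9.27 in the wild type against 8.97, 8.91 and 8.92 in the knockout, a log2 change of -0.43, or a 1.35-fold lower signal (limma adjusted p = 0.0467). Etv5 probe set 10363901 gave 11.48, 11.52 and 11.46 against 11.67, 11.88 and 11.73. The first therefore fell without losing its signal, the second did not pass (adjusted p = 0.13), and whether either lies in the deleted part is not given in the sources used here. The labels are therefore not checked by this gene, and knockout below means the samples labelled so. All 13 measured markers of B cell precursors, such as Igll1, Cd79a and Ebf1, were above background in both genotypes. Of these, Pax5 rose (0.43, adjusted p = 0.0127), Dntt fell (-0.37, adjusted p = 0.0132) and 11 did not pass. Of all genes 4.43% were called, and of those above background 6.23%. Zap70 of 14 T and NK cell markers rose (0.33, adjusted p = 0.0470), as did Pecam1 of 11 stromal and endothelial markers (0.46, adjusted p = 0.00811). Over all genes 2.42% rose. Unadjusted, 4 of the 14 T and NK cell markers had a p under 0.05, 2 higher and 2 lower, beside 13.4% of all genes. No mast cell, basophil, erythroid or megakaryocyte marker passed limma or had an unadjusted p under 0.05.

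The probe sets differed widely in signal. No detection calls come with the table, so the 1035 probe sets of olfactory receptor genes, which B cell precursors are not known to use, served as a background scale, with a median of 5.64 and a 95th percentile of 7.27 log2 units. By the mean over all arrays, 25 of the 43 receptor genes lay above that percentile and 18 below it. Among those above it were Il7r with wild-type and knockout means of 13.19 ± 0.032 and 13.26 ± 0.0029 (log2 signal, SD, n = 3), Csf2rb, Il17ra, Il10rb, Il2ra, Csf2rb2, Il3ra, Csf2ra, Il15ra and Crlf2. Those below it included Il2rb, which encodes the signalling chain of the IL-2 and IL-15 receptors, Il13ra1, Il5ra, Lifr, Osmr, Csf3r, Ghr and Lepr. A signal below the line was not shown to be above background, which does not mean that the transcript is missing. Signals of different probe sets are not levels per transcript length, so their order is no order of abundance. Il1r2 and Il5ra crossed the line, with wild-type means of 8.02 and 7.38 and knockout means of 7.26 and 6.87.

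**Figure D1:**
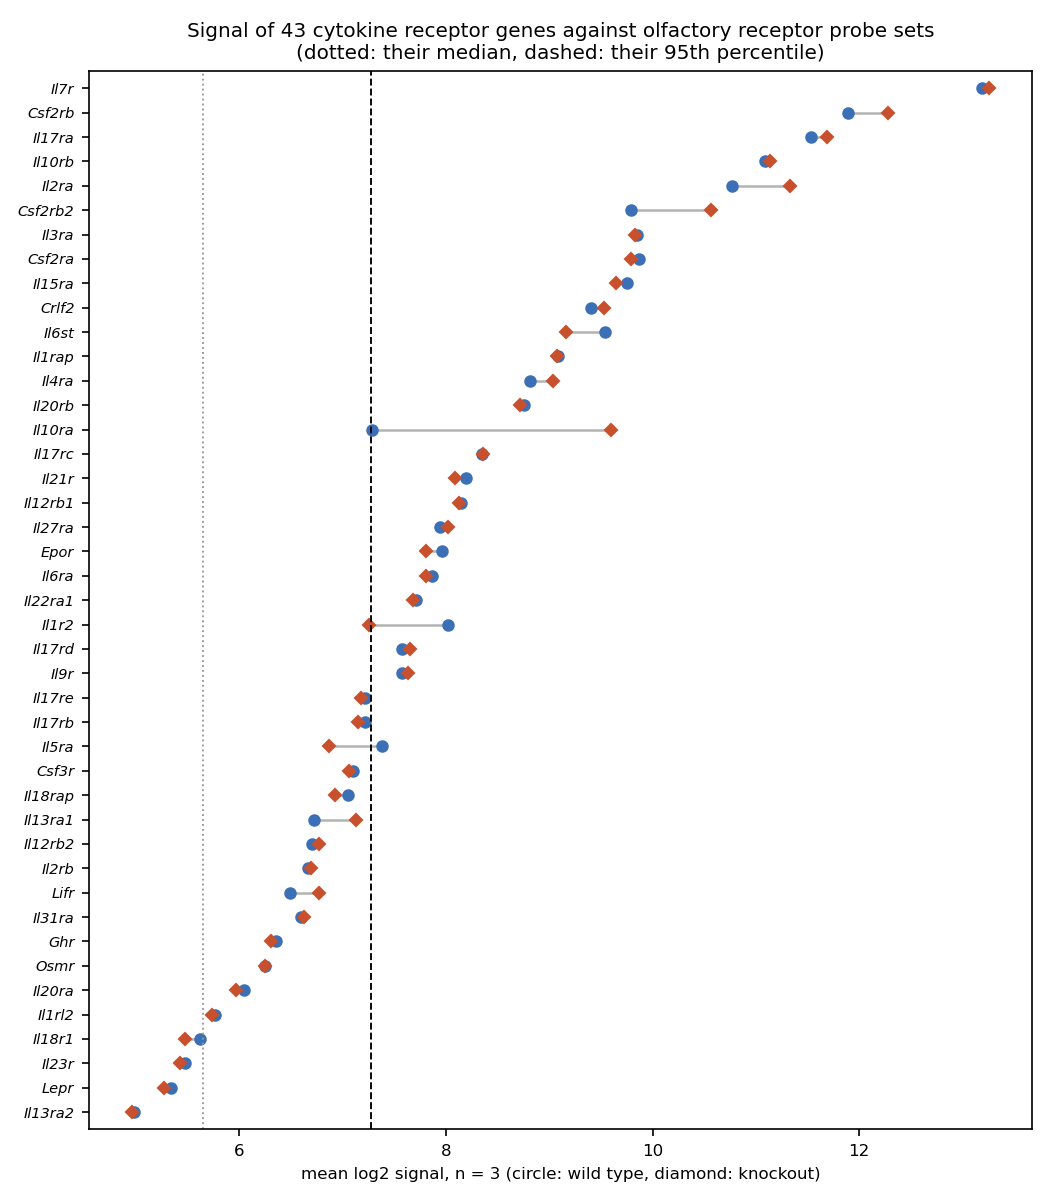
Mean log2 signal (horizontal axis, n = 3) of the 43 receptor genes in wild type (circles) and knockout (diamonds), sorted by the mean over 6 arrays, which is no order of abundance. The dashed line is the 95th percentile of olfactory receptor probe sets (7.27) and the dotted line their median (5.64). Most circles and diamonds overlap, Il10ra starts at the dashed line in the wild type and lies well to its right in the knockout, and Il1r2 moves the other way.

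Between the genotypes, 4 receptor chains rose in the knockout, 1 fell and 38 did not pass. Il10ra, the ligand-binding chain of the IL-10 receptor, rose at least 4.90-fold, Csf2rb2, a beta chain of the mouse IL-3 receptor, 1.72-fold, and Il2ra, the alpha chain of the IL-2 receptor known as CD25, 1.48-fold, while Il13ra1, a chain of the IL-4 and IL-13 receptors, rose by 0.40 log2 units with all 6 arrays below the background line, so no fold is given. Il1r2, the decoy receptor that binds IL-1 without signalling, was at least 1.65-fold lower in the knockout. In the bounds for Il10ra and Il1r2, arrays of the dimmer genotype below the line were set to it. The test was limma over all 35556 probe sets with Benjamini-Hochberg adjustment at 0.05, which called 3.08% of them. The same rule called 884 of the 19938 genes, or 4.43%, with 2.42% higher and 2.01% lower in the knockout. The 5 calls are 11.6% of the 43 chains. The chains were chosen with earlier results of these data known, so this share is not independent of those results. The share was not tested as a list, and over the chains above background it was 4 of 25 beside 6.23% of all genes above that line. The median change of the chains was -0.02 log2 units and that of all genes -0.00393. Bulk RNA does not separate a change in the share of cells with a transcript from a change in RNA per cell.

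In 15 of the 43 chains, 34.9%, the ranges of the 3 knockout and 3 wild-type values did not overlap, with the knockout higher in 10 and lower in 5. The same held for 20.5% of all genes, 10.2% in each direction. At an unadjusted limma p under 0.05 stood 11 chains, 8 higher and 3 lower, beside 13.4% of all genes, 7.2% higher and 6.25% lower. The 6 of them that missed the adjusted threshold were Il5ra, Csf2rb, Il6st, Lifr, Il4ra and Il17ra. For the remaining 32 chains, the 95% intervals of the log2 difference all lay between -0.51 and 0.41, and the widest was that of the dim Il23r. Replicates of the chains spread as those of other genes did. Their median SD was 0.080 for wild-type and 0.094 for knockout samples, beside 0.071 and 0.087 over all genes.

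**Figure D2:**
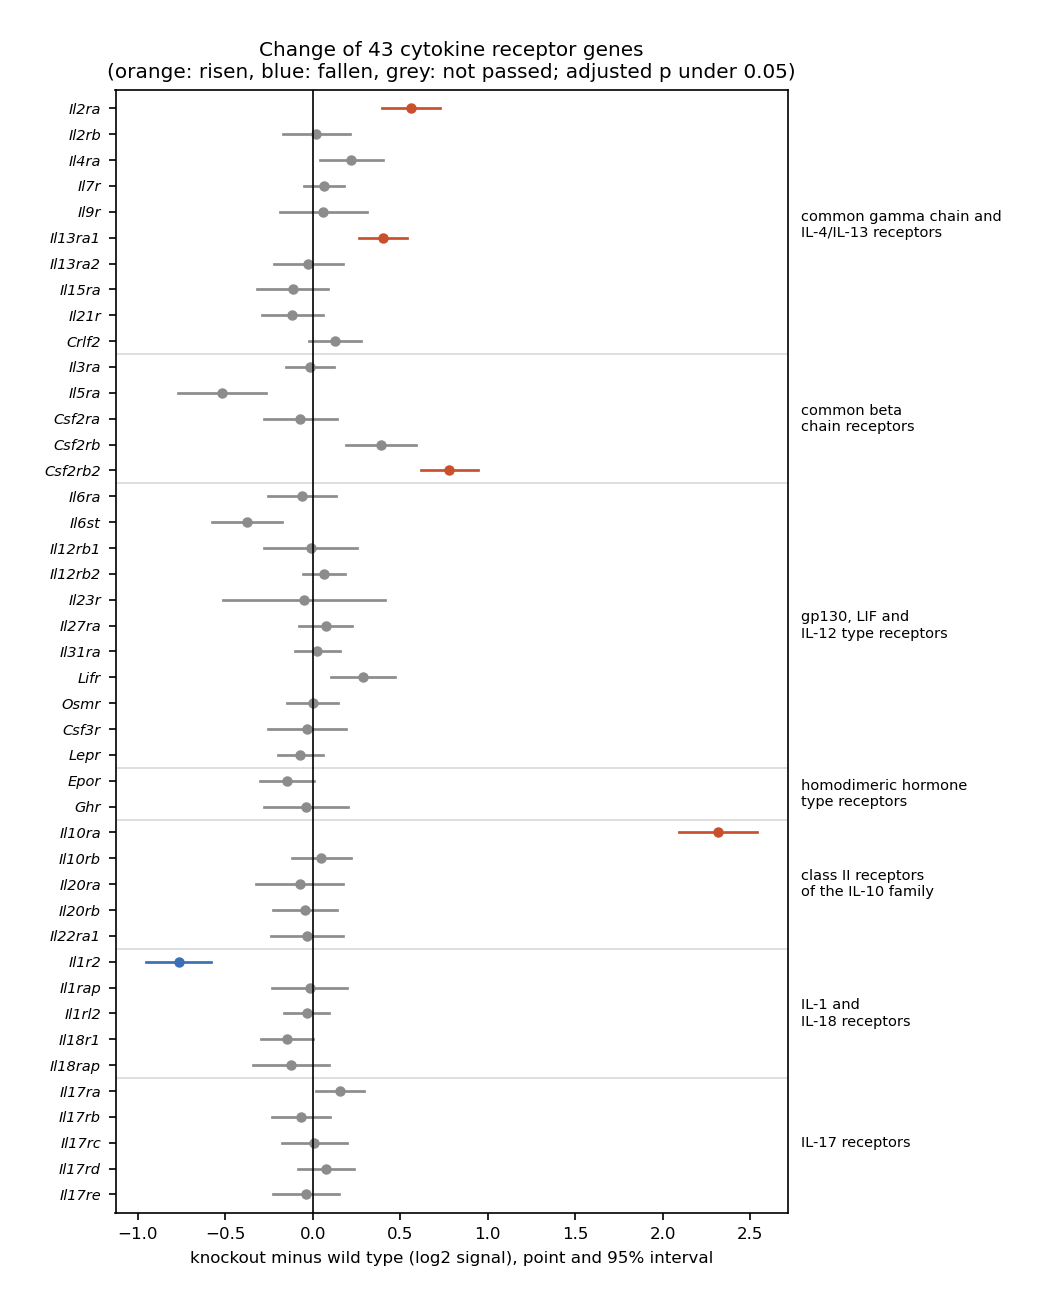
Log2 difference, knockout minus wild type, with its 95% interval from limma (horizontal axis) for the 43 receptor genes, grouped by receptor family. The 4 risen genes are Il2ra, Il13ra1, Csf2rb2 and Il10ra, and Il1r2 is the fallen gene. Il10ra at 2.31 log2 units stands apart from all others, which lie between -0.77 and 0.78.

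Il10ra carried the largest difference of the family. This chain binds IL-10, an anti-inflammatory cytokine that also acts on B cells, and holds JAK1, while its partner Il10rb is shared with other cytokines and holds TYK2. The Il10ra signal was 7.36, 7.24 and 7.25 in wild-type samples against 9.41, 9.69 and 9.68 in knockout samples. Every knockout value was more than 2 log2 units above every wild-type value. The log2 change of Il10ra was 2.31 ± 0.092 (SE; limma adjusted p = 0.000188), with a 95% interval of 2.09 to 2.54. Of the wild-type arrays, 1 of 3 was above the background line of 7.27, and the wild-type mean of 7.28 was just above it. With wild-type arrays below the line set to it, Il10ra was at least 4.90-fold higher in the knockout.

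The partner chain did not follow. Il10rb signals were high throughout, with means of 11.09 ± 0.021 and 11.14 ± 0.12 (SD, n = 3), and its difference of 0.05 had a 95% interval of -0.12 to 0.22. The other chains of the family, Il20ra, Il20rb and Il22ra1, which bind IL-20 and IL-22 type cytokines of epithelia, differed by -0.07, -0.04 and -0.03 log2 units, without passing limma. Il10, the ligand gene, lay below the background line, at 5.69 and 5.60. Il10ra is also a gene of myeloid cells. Of 14 myeloid markers 12 did not pass and 2 rose, beside 2.42% of all genes risen. These were Ly6g (1.14, adjusted p = 0.0156) and Itgam (0.60, adjusted p = 0.0235). Both rose from wild-type means below the line, 6.55 for Ly6g and 7.24 for Itgam, to knockout means of 7.69 and 7.83. Only 5 of the 14 were above background. The summed linear signal of all 14 ran from 2307 to 2444 in wild-type and from 2497 to 2826 in knockout samples. At an unadjusted p under 0.05 stood 4 of the 14, all higher, beside 7.2% of all genes higher. Besides Ly6g and Itgam these were Cd68 (0.34, adjusted p = 0.278) and Fcgr3 (0.30, adjusted p = 0.186), both above background. Mpo, S100a8, S100a9 and Cd14, which are typical of granulocytes and monocytes, were below the line in both genotypes and differed by -0.02, -0.10, -0.0029 and -0.04. Lyz2 and Elane, above it in both genotypes, differed by -0.32 and 0.05. Ctsg, Adgre1, Csf1r and Csf3r, below it in both, differed by 0.10, 0.08, -0.11 and -0.03. The part of these markers in the Il10ra value was not tested.

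**Figure D3:**
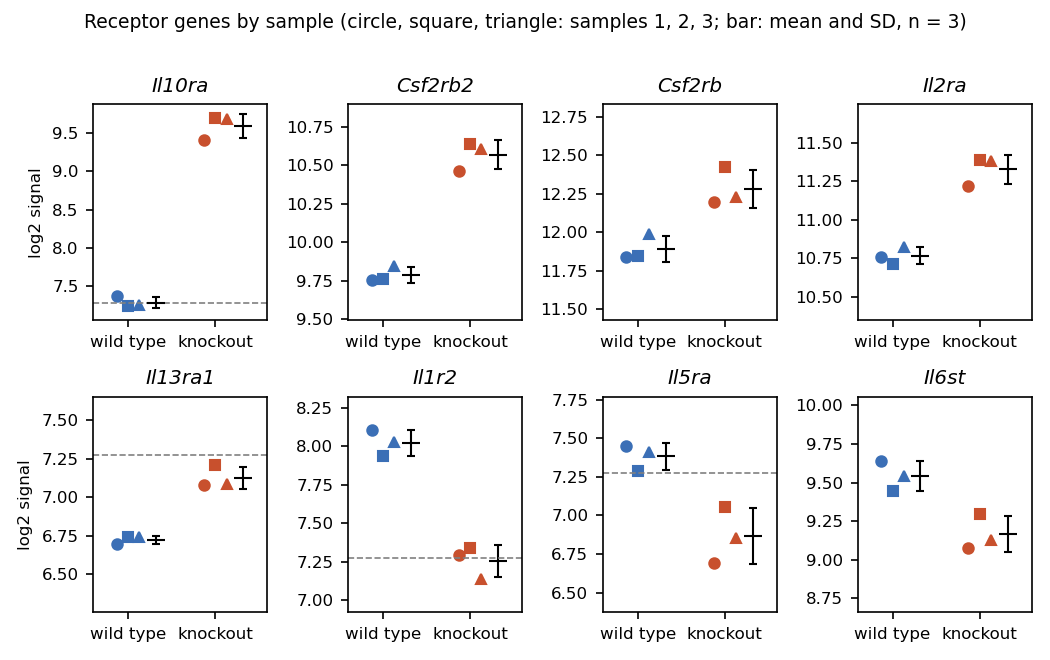
Log2 signal (vertical axis, its own range in each panel) of 8 receptor genes in the 3 wild-type (blue) and 3 knockout (orange) samples, with mean and SD (n = 3); the dashed line, where in range, is the background line of 7.27. In all 8 panels the groups do not overlap; Il10ra differs by over 2 units, the others by less than 1, and Csf2rb, Il5ra and Il6st did not pass the adjusted threshold.

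Both beta chain genes of the IL-3 receptor family were higher in the knockout, and only Csf2rb2 passed. Mice have a pair of such genes side by side on chromosome 15: Csf2rb, shared by the receptors for IL-3, IL-5 and GM-CSF, and Csf2rb2, which serves IL-3 alone. Csf2rb2 gave 9.75, 9.76 and 9.85 in wild-type samples against 10.46, 10.64 and 10.61 in knockout samples. Its log2 change was 0.78 ± 0.067 (SE; limma adjusted p = 0.00266), or 1.72-fold with a 95% interval of 1.53 to 1.92. Csf2rb gave 11.84, 11.84 and 11.99 against 12.19, 12.42 and 12.23, also without overlap. Its difference of 0.39 (95% interval 0.19 to 0.59) had an adjusted p of 0.0763. Within each array, Csf2rb2 minus Csf2rb was -2.08, -2.08 and -2.14 in wild-type samples against -1.73, -1.78 and -1.62 in knockout samples. This comparison was chosen after the values were seen. An exact permutation test gave p = 0.1, the smallest that 3 against 3 samples allow, so it cannot decide the question. The genes are close copies, and how far each probe set also detects the other transcript was not tested.

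None of the 3 alpha chains of this family, which give each receptor its ligand, passed limma. Only 1, Il5ra, had an unadjusted p under 0.05, beside 13.4% of all genes. Il3ra gave 9.79, 9.85 and 9.90 in wild-type samples against 9.83, 9.88 and 9.78 in knockout samples, overlapping groups with a difference of -0.01 (95% interval -0.15 to 0.12). Csf2ra, the GM-CSF binding chain, differed by -0.07 (95% interval -0.28 to 0.14). Il5ra, the IL-5 binding chain of eosinophils and some B cells, gave 7.45, 7.29 and 7.41 against 6.69, 7.05 and 6.85. All 3 knockout values of Il5ra were lower, but the log2 difference of -0.52 missed the threshold (95% interval -0.77 to -0.27, limma adjusted p = 0.0633). The ligand genes Il3, Csf2 and Il5 were below background in both genotypes and differed by 0.03, -0.02 and -0.01.

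In the common gamma chain family, joined here with the IL-4 and IL-13 chains, 2 of 10 measured genes rose, none fell and 8 did not pass, beside 2.42% of all genes risen. Both calls were lost without wild-type sample 1, without knockout sample 3 and with the sample number as a block, so that the count was then 0. Il2ra, which raises the affinity of the IL-2 receptor and is a STAT5 target, gave 10.76, 10.71 and 10.83 in wild-type samples against 11.22, 11.39 and 11.38 in knockout samples. The groups lay apart, and the log2 difference was 0.56 ± 0.067 (SE; limma adjusted p = 0.00914). Its signalling partner Il2rb was dim, at 6.67 and 6.69, and differed by 0.02 (95% interval -0.17 to 0.22). Il15ra, the next protein-coding gene to Il2ra on chromosome 2, differed by -0.11 (95% interval -0.32 to 0.09). The rise of Il2ra was thus not seen at its neighbour, although the difference between the genes was not tested. Il13ra1 rose from 6.69, 6.74 and 6.74 to 7.08, 7.21 and 7.09, a difference of 0.40 ± 0.057 (SE; adjusted p = 0.0180). All 6 values lay below the background line, so the size of this change is uncertain. Il4ra, with which Il13ra1 forms a receptor for IL-4 and IL-13, had means of 8.81 ± 0.091 and 9.03 ± 0.090 (SD, n = 3) without overlap, a difference of 0.22 (95% interval 0.04 to 0.40, adjusted p = 0.309).

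The other chains of this family did not pass. Il7r gave 13.16, 13.21 and 13.21 in wild-type samples against 13.26, 13.26 and 13.26 in knockout samples. The groups of Il7r did not overlap, but the difference was 0.07 (95% interval -0.05 to 0.18) and did not pass limma (adjusted p = 0.784). Crlf2, which pairs with Il7r in the receptor for TSLP and is overexpressed in some human ALL, gave 9.40, 9.39 and 9.41 against 9.43, 9.62 and 9.54. Its difference of 0.13 (95% interval -0.02 to 0.28) did not pass limma, nor did that of Il21r, the IL-21 receptor of activated lymphocytes, at -0.12 (95% interval -0.29 to 0.06). Il9r and the decoy Il13ra2 differed by 0.06 and -0.02. The ligand genes Il7 and Tslp were below background in both genotypes.

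Il1r2 was the only receptor chain that fell. It gave 8.11, 7.93 and 8.03 in wild-type samples against 7.29, 7.34 and 7.14 in knockout samples. Every knockout value was lower than every wild-type value, and the log2 difference was -0.77 ± 0.077 (SE; limma adjusted p = 0.00464). Its knockout mean of 7.26 was just below the background line, with 2 of 3 arrays above it, and the fold of at least 1.65 is a lower bound. Il1rap, the accessory chain that both the signalling receptor and the decoy use, gave 9.09 ± 0.11 and 9.07 ± 0.12 (SD, n = 3), a difference of -0.02 (95% interval -0.23 to 0.20). Il1rl2, Il18r1 and Il18rap, which lie in the same cluster on chromosome 1 and serve IL-36 and IL-18, were below background and differed by -0.03, -0.15 and -0.12 without passing. The ligand genes Il1a and Il1b and the antagonist gene Il1rn were below background as well, and differed by -0.02, -0.06 and -0.0062.

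None of the 5 IL-17 receptor chains passed limma, and 1 had an unadjusted p under 0.05, beside 13.4% of all genes. This was Il17ra, the shared and bright chain, at 11.52, 11.51 and 11.57 in wild-type samples against 11.62, 11.77 and 11.68 in knockout samples. Its difference was 0.16 (95% interval 0.02 to 0.30, adjusted p = 0.36). The other chains, Il17rb, Il17rc, Il17rd and Il17re, differed by -0.07, 0.01, 0.08 and -0.04.

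Among the gp130, LIF and IL-12 type receptors none of 11 chains passed limma. An unadjusted p under 0.05 was found for 2, in opposite directions, beside 13.4% of all genes. Il6st encodes gp130, the chain shared by IL-6, LIF and oncostatin M. It gave 9.64, 9.44 and 9.54 in wild-type samples against 9.07, 9.29 and 9.13 in knockout samples, lower in all 3 samples. The log2 difference of Il6st was -0.38 (95% interval -0.58 to -0.18, adjusted p = 0.0895). Lifr, its partner in the LIF receptor, was dim and gave 6.46, 6.60 and 6.40 against 6.76, 6.70 and 6.86, a difference of 0.29 (95% interval 0.11 to 0.47, adjusted p = 0.155). Il6ra, the IL-6 binding chain, differed by -0.06 (95% interval -0.26 to 0.13). The others lay between -0.07 for Lepr and 0.08 for Il27ra, and Osmr, Csf3r, Il31ra, Il12rb2, Il23r and Lepr were below background. Of the homodimeric hormone type, neither Epor nor Ghr passed limma or had an unadjusted p under 0.05. Epor, the erythropoietin receptor, gave 7.95, 7.97 and 7.95 against 7.88, 7.85 and 7.70, lower in each knockout sample with a difference of -0.15 (95% interval -0.30 to 0.0049). Ghr, the growth hormone receptor, differed by -0.04.

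Promoter sequences of the changed receptors are shown because BCR-ABL1 is known to activate STAT5 and ETV5 is a transcription factor of the ETS family. The letters TTCNNNGAA stand for STAT sites, and GGAA is the core of ETS sites. The RefSeq promoter table, build GRCm38.p6, held entries for 40 of the 47 chains, including Il2ra, Il13ra1, Csf2rb2 and Il1r2 and not Il10ra. The 250 bases before each start are printed 5′ to 3′ in the direction of the gene, and capitals mark TTCNNNGAA.
Csf2rb2 promoter, chr15:78305722-78305971, minus strand: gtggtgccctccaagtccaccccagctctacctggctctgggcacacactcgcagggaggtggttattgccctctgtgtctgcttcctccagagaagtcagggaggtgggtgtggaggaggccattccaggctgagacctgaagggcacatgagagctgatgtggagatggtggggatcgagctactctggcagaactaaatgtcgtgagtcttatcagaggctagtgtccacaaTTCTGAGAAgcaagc
Il1r2 promoter, chr1:40085843-40086092, plus strand: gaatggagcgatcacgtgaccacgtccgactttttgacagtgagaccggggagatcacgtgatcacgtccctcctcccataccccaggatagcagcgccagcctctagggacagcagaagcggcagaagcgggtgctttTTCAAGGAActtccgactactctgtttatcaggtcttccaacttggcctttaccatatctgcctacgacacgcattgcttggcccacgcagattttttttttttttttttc
Il2ra promoter, chr2:11642542-11642791, plus strand: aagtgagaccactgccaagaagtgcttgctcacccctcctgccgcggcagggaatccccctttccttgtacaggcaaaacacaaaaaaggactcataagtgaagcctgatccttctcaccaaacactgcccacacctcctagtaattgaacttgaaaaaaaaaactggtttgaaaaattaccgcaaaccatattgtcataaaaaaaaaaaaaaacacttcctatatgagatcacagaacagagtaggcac
Il13ra1 promoter, chrX:36111858-36112107, plus strand: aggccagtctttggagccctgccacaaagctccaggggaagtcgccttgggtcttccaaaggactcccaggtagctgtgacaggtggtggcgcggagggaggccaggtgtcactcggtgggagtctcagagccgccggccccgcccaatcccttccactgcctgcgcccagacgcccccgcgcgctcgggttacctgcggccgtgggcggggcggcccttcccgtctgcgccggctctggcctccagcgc
The Csf2rb2 window held TTCTGAGAA, whose first base lies 15 bases before the start, and that of Il1r2 held TTCAAGGAA, whose first base lies 111 bases before it. The windows of Il2ra and Il13ra1 held no such letters. A risen and a fallen gene thus shared the motif, and Il10ra was not searched. Over windows of 300 bases that reach 50 bases past the start, 7 of 40 chains (17.5%) and 9.55% of 27025 genes had TTCNNNGAA, which reads the same on both strands. The longer ETS letters CCGGAAG, searched on both strands, stood in 4 of 40 chains (10%) and in 9.93% of genes. Neither Csf2rb2, Il1r2, Il2ra nor Il13ra1 was among the 4. GGAA on either strand occurred 2, 3, 3 and 4 times in the 250 bases of Csf2rb2, Il1r2, Il2ra and Il13ra1, and in 96.5% of genes at least once in 300 bases. In Il1r2 GGAA overlaps the TTCNNNGAA match. A match is a description of the letters and not evidence that a factor binds.

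Behind the receptors, the kinase gene Tyk2 differed most. The partners of the kinases were likewise chosen after the values were seen. TYK2 is the JAK kinase bound by Il10rb, Il12rb1, Il13ra1 and the interferon receptor chain Ifnar1. Tyk2 gave 10.67, 10.67 and 10.73 in wild-type samples against 9.26, 9.43 and 9.39 in knockout samples. All knockout values were more than 1 log2 unit lower, a change of -1.33 ± 0.062 (SE; limma adjusted p = 0.000313), and the ratio of wild type to knockout was 2.51. Of 9 measured JAK and STAT genes it alone passed, as a fall, and 8 did not. Unadjusted, 3 of the 9 had a p under 0.05, 1 higher and 2 lower, beside 13.4% of all genes. Jak1, the partner kinase of TYK2, gave 12.88, 12.88 and 12.94 against 12.67, 12.75 and 12.66, a difference of -0.21 (adjusted p = 0.128). Stat5b, 1 of the STAT5 genes, differed by 0.29 (95% interval 0.13 to 0.45, adjusted p = 0.10), Stat5a by 0.18, and Stat3, the main STAT of IL-10, by 0.11 (95% interval -0.04 to 0.27).

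Of 17 inhibitors of these receptors, 3 rose, none fell and 14 did not pass, beside 2.42% of all genes risen. All 17 were above background, and of all genes above that line 6.23% were called, counting both directions. At an unadjusted p under 0.05 stood 6 of the 17 inhibitors, all of them higher, beside 7.2% of all genes, dim ones included. Cish gave 10.09, 10.06 and 10.19 in wild-type samples against 10.84, 10.95 and 10.95 in knockout samples (log2 change 0.80 ± 0.062 SE, limma adjusted p = 0.00176). Socs1, which inhibits JAK kinases directly, rose by 0.45 (adjusted p = 0.0416), and Ptpn6, encoding the phosphatase SHP-1 of blood cells, by 0.29 (adjusted p = 0.0437). Both calls were lost with any 1 sample left out and with the sample number as a block (adjusted p = 0.145 and 0.163), which leaves Cish. Socs2 was bright and differed by -0.03 (95% interval -0.14 to 0.08), and Socs3 by 0.20 (adjusted p = 0.296). The 19 measured STAT5 targets were all above background too. Unadjusted, 10 of the 19 had a p under 0.05, 7 higher and 3 lower, beside 13.4% of all genes. Among the 19 there were 5 that rose and 1 that fell, while 13 did not pass, beside 2.42% and 2.01% of all genes. Besides Il2ra and Cish these were Lta, the lymphotoxin alpha gene (0.97, adjusted p = 0.0029), the repressor gene Gfi1 (0.71, adjusted p = 0.00528) and the survival gene Bcl2l1 (0.63, adjusted p = 0.00499), while Xbp1 fell (-0.54, adjusted p = 0.0046). Other STAT5 targets, chosen here after their values were seen, did not pass, such as Socs2, Pim1 (0.08) and Bcl2, which differed by -0.29 (adjusted p = 0.0808). Il2ra and Cish are members of more than 1 list, so the counts are not independent.

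**Figure D4:**
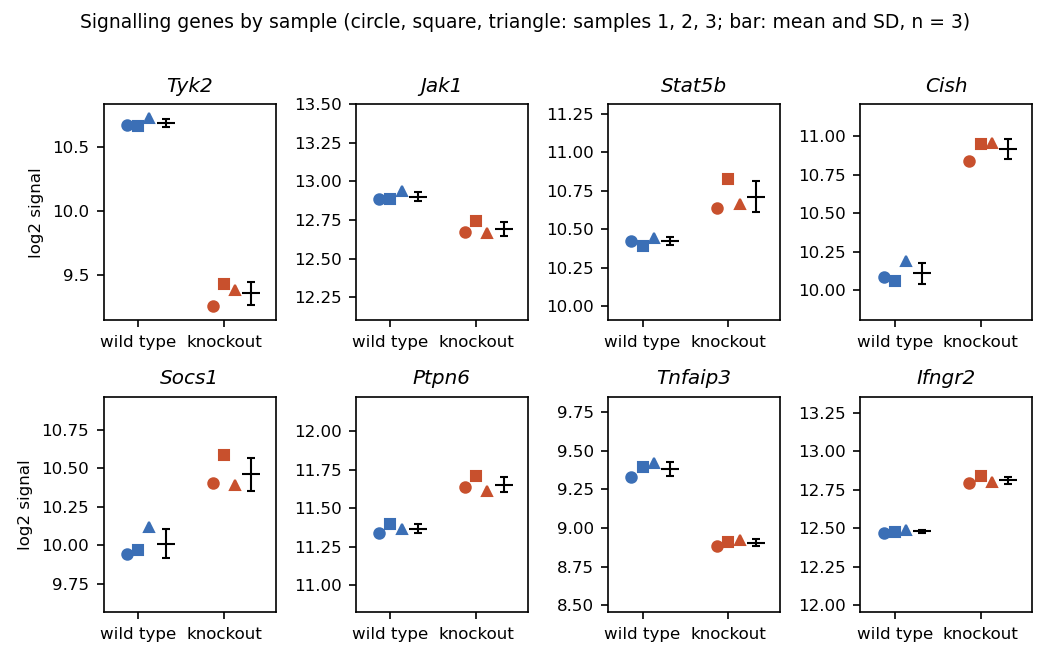
Log2 signal (vertical axis, its own range in each panel) of 8 signalling genes in the 3 wild-type (blue) and 3 knockout (orange) samples, with mean and SD (n = 3). Tyk2 drops by 1.33 units, Cish rises by 0.80, and the other 6 genes differ by less than 0.5; Jak1 and Stat5b did not pass the adjusted threshold.

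Ligand genes gave little signal. Of 38 measured ligand genes 22 lay below background and none passed limma. Only 2, Lif and Gh, had an unadjusted p under 0.05, beside 13.4% of all genes. Lif had the smallest p, with 9.76, 9.74 and 9.82 in the wild type against 8.96, 9.48 and 9.28 in the knockout (difference -0.53, 95% interval -0.85 to -0.21, adjusted p = 0.131). Il33, Osm and Il12a, named after their values were seen, were above background and differed by 0.0042, 0.12 and 0.08. None of the 3 measured antagonists passed limma, 1 had an unadjusted p under 0.05, and this gene, Il18bp, differed by 0.17 (adjusted p = 0.412). Among 16 adaptors and regulators of IL-1 and IL-17 receptor signalling 1 fell, beside 2.01% of all genes, and 15 did not pass. The fallen gene was Tnfaip3, which encodes the NF-kappaB inhibitor A20 (-0.48, adjusted p = 0.00541). Unadjusted, 5 of the 16 had a p under 0.05, 2 higher and 3 lower. Irak3, a brake on IL-1 receptor signalling that was also named after its values were seen, differed by -0.47 (adjusted p = 0.104). Of 11 receptor chains outside the set, Flt3, the receptor tyrosine kinase of lymphoid progenitors, rose by 1.27 (adjusted p = 0.00192) and Ifngr2, the second chain of the interferon gamma receptor, by 0.33 (adjusted p = 0.0162). Ifnar1 and Ifnar2, next to Il10rb on chromosome 16, differed by 0.07 and 0.00063. Over all these lists 12 of 110 genes passed, 9 risen and 3 fallen, or 10.9% beside the 4.43% of all genes, with no test of the lists. The lists were chosen with earlier results of these data known, so this share is not independent of those results. Il2ra is counted in it and among the receptor calls as well. Of the 110, 82 were above background, and of all genes above that line 6.23% were called.

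The 5 receptor calls did not rest equally on the samples. Il10ra, Csf2rb2 and Il1r2 passed in all 6 fits with a sample left out, with highest adjusted p-values of 0.00271, 0.0216 and 0.0286. Il2ra missed the threshold without wild-type sample 1 or knockout sample 3 (highest adjusted p 0.0554). Il13ra1 missed it without wild-type sample 1, 2 or 3 or knockout sample 3 (highest 0.0979). Without wild-type sample 1 or knockout sample 3, the count of risen chains was therefore 2. Il5ra passed without knockout sample 2 (adjusted p = 0.0409), which raised the count of fallen chains to 2. In the fits with all samples but another setting, Csf2rb passed in 7 of 9, Il6st in 6 of 9 and Il5ra in 4 of 8, each in the direction given above. Tyk2, Cish, Lta, Gfi1, Bcl2l1, Xbp1, Tnfaip3 and Flt3 passed in each fit that left out 1 sample. Socs1 and Ptpn6 passed in none of the 6 (highest adjusted p 0.172 and 0.197) and Ifngr2 in 1, that without knockout sample 1 (highest 0.0935), and it also missed with the sample number as a block (0.114).

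**Figure D5:**
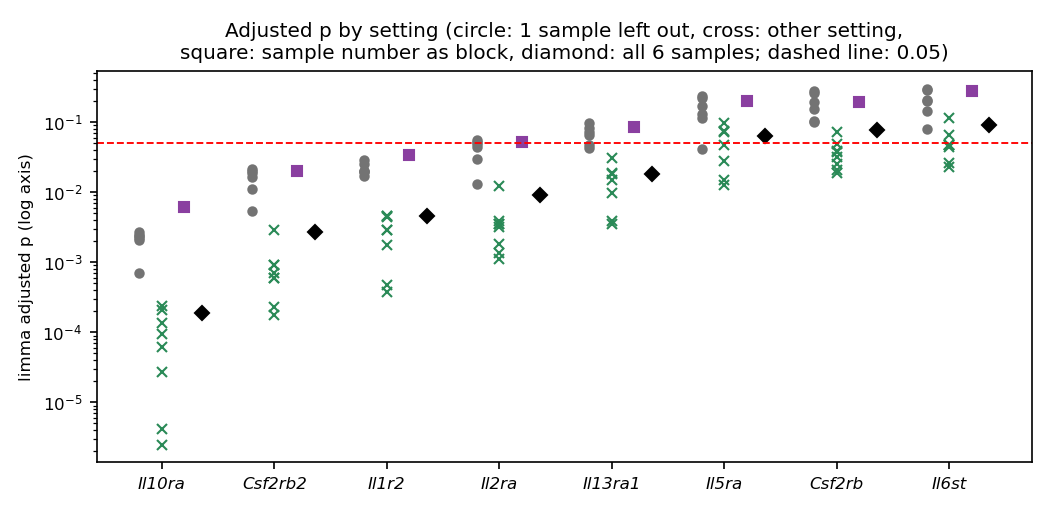
Limma adjusted p (vertical log axis, dashed line at 0.05) of 8 receptor genes with 1 sample left out (circles), with other settings (crosses), with the sample number as a block (squares) and with all 6 samples (diamonds). Every symbol of Il10ra, Csf2rb2 and Il1r2 is below the line, while those of Il2ra, Il13ra1, Il5ra, Csf2rb and Il6st lie on both sides.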

How the data were processed

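Total RNA of 6 samples was hybridised to 1-colour Affymetrix arrays. The deposited values are log2 signals for 35556 probe sets, made by the authors with RMA and Partek 6.5, per the submitters' processing notes. The values were used as deposited. The platform annotation gave 1 gene symbol for 21789 probe sets, several for 1621 and none for 12146. A linear model was fitted in limma 3.58.1 (R 4.3.3) to all probe sets, knockout against wild type with 3 samples each and no covariate. The p-values were adjusted by Benjamini-Hochberg, with a threshold of 0.05. Each gene was then read from its brightest single-gene probe set. The procedure was checked on simulated data with 35556 probe sets, 100 of them changed by 0.5 and 100 by 1 log2 unit. It recovered 44% of the simulated differences of 0.5 and 89% of those of 1, and 3.62% of its calls were false. Far fewer probe sets were changed there than the 1095 called in the real data, so these rates need not hold for the real arrays.

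Named were the receptor chains that passed or had an unadjusted p under 0.05, a fixed group (Il7r, Il2rg, Crlf2, Il2ra, Il2rb, Il4ra, Il21r, Il3ra, Csf2rb, Csf2rb2, Il6st, Il10ra and Epor), and, of each pathway list, the genes that passed or else the gene with the smallest p. Other names were added after their values were seen. The members and lists were chosen with earlier results of these data known. Alternatives covered normalization, a filter on dim probe sets, the probe set rule, the variance model, array weights, the threshold, the sample number as a block, and each sample left out. Arrays give no read depth, and their number limits the precision.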

Additional observations from a re-analysis of the deposited data

How the results depend on the processing

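Il10ra, Csf2rb2 and Il1r2 passed in every setting tried. Risen chains numbered 4, fell to 2 with the replicate block, and ranged from 2 to 4 with 1 sample left out. With the dimmest 40% of probe sets left out they were again 4, but Il13ra1 was among those left out and Csf2rb passed. They were 5, with Csf2rb added, with single-gene probe sets only, quantile normalization, cyclic loess, the variance trend, array weights, probe sets averaged per gene and a threshold of 0.10, and 3 at a threshold of 0.01. Fallen chains numbered 1. They were 2 with the dimmest 40% of probe sets left out, quantile normalization, cyclic loess or a variance trend with robust fit, and 3 with single-gene probe sets only, array weights, probe sets averaged per gene or a threshold of 0.10. With 1 sample left out they ranged from 1 to 2. The additions were Il5ra and Il6st. Probe sets called were 1095, 544 with the replicate block, 565 to 857 with 1 sample left out, 538 at a threshold of 0.01, 1048 with median centring and between 1294 and 1475 in the remaining settings. With 1 sample left out, the differences of Il2rb ran from -0.022 to 0.10 and those of Il3ra from -0.042 to 0.014, changing sign without passing. The cause of these changes was not tested. Normalization moved the median of all probe sets by less than 0.1.

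Under the replicate block, Il2ra (adjusted p = 0.0517), Il13ra1 (0.0855), Socs1 (0.145), Ptpn6 (0.163) and Ifngr2 (0.114) missed the threshold. The numbers are not taken as pairs: deviations of same-numbered samples correlated at -0.12, 0.016 and 0.26, and 2 of 6 samples correlated best with their own number. Counting only chains above background gave 3 risen and 1 fallen, an alternative chosen after seeing the data. With 3 samples a group, differences near 0.5 can be missed, and dim probe sets such as Il13ra1 limit what can be said of size.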
